A study of Bos taurus with 6 samples.

Results

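The genes described here are 10 protein-coding genes of the microRNA machinery in BEND, a bovine endometrial epithelial cell line that is long established in culture: the Argonautes AGO1, AGO2, AGO3 and AGO4, the scaffold proteins TNRC6A, TNRC6B and TNRC6C, and the processing factors DICER1, DROSHA and DGCR8. They were chosen by name, with earlier results of these data known. Each matched exactly 1 row of the deposited table, and they make up 10 of its 20958 genes. The study compared 3 RNA-seq libraries of cells transfected with a mimic of the bovine microRNA bta-miR-200b with 3 libraries of cells transfected with a control mimic, called mimic NC by the labels and NC here. All 6 libraries came from BEND cells transfected at high confluence in serum-containing medium, and all 6 carry the same treatment tag, cell apoptosis. The labels give neither a dose nor a time after transfection. Whether replicates were separate cultures is not stated, and the p-values therefore reflect only the spread among the libraries, possibly a technical one.

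MicroRNAs are cut from long primary transcripts in the nucleus by the Microprocessor, made of the RNase DROSHA and its RNA-binding partner DGCR8, and the resulting hairpin is cut again in the cytoplasm by DICER1. The mature strand is held by an Argonaute protein, which pairs it with target mRNAs. TNRC6 proteins, also called GW182 proteins, bind Argonaute and recruit the enzymes that shorten the poly(A) tail of the target. A transfected mimic is already a short duplex, so it enters this pathway at the Argonaute step. Setting mimic against NC asks what an excess of miR-200b does to the transcripts of these cells, and here it is read for the machinery itself. Mature microRNAs are too short for an mRNA library, and the level of miR-200b was not analysed.

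Library totals ranged from 19212694 to 21129547 counts, and every library pair, within or between groups, differed by more than sampling noise (chi-square over its degrees of freedom, 4.98 to 21.3). The chi-square of mimic replicate 3 was 7.15 with mimic replicate 2, 8.28 with NC replicate 3 and 11.5 with mimic replicate 1. ZEB1, a well-known miR-200b target, fell from 40.2 ± 2.16 to 29.3 ± 3.13 CPM (mean ± SD, n = 3; CPM are reads of a gene relative to the scaled library total), and CDH1, the gene of E-cadherin, rose 3.24-fold. Of 8 epithelial markers, the keratins KRT8, KRT18 and KRT19 were abundant in every library, EPCAM was nearly absent from NC and CLDN4 was at 0 throughout. Summed over the 8, the level was 10430 to 11852 CPM with the mimic and 8587 to 9303 CPM in NC. Nearly all of this sum was KRT8, KRT18 and KRT19. KRT18 and KRT8 rose, at edgeR adjusted p-values of 6.75e-10 and 0.00703, while KRT19 overlapped between the groups, at 0.203. EPCAM and KRT7 rose from means of 0.0502 and 0.215 CPM in NC, at edgeR adjusted p-values of 2.88e-07 and 7.05e-06. With CDH1, 5 of the 6 tested epithelial markers were called higher. The same libraries held high levels of fibroblast or stromal markers, with COL1A2 at 11640 ± 402 CPM in NC. Summed over 8 such markers the level was 23427 to 26155 CPM with the mimic and 25066 to 26436 CPM in NC, so the groups overlapped. That sum was mostly COL1A1 and COL1A2, and 2 of the 8 fell, DCN by 0.42 and PDGFRB by 0.34 on the log2 scale, at edgeR adjusted p-values of 0.001 and 0.0173. The summed level of 4 immune markers was 1.76 to 2.41 CPM with the mimic and 2.92 to 3.55 CPM in NC, with PTPRC and CD3E at 0, and that of 4 endothelial markers was 2.73 to 3.37 CPM and 4.41 to 5.31 CPM. Both sums were thus low and lower in every mimic library. The immune sum was almost all CD14, and the endothelial sum mostly PECAM1 and VWF. CD14 and PECAM1 fell, at edgeR adjusted p-values of 0.0409 and 0.0146, and VWF did not pass, at 0.368. LAPTM5, CDH5 and TIE1 had few reads, with 9, 5 and 3 over the mimic libraries and 4, 1 and 1 over NC. Of 4 germline genes of the small RNA pathway, PIWIL1, PIWIL2 and DDX4 were at 0, and the sum was at most 1.08 CPM. The summed level of 5 ribosomal protein and elongation factor genes was 10924 to 11583 CPM with the mimic and 12074 to 13082 CPM in NC. All 5 had a lower mean with the mimic, and RPS23 and RPL12 fell, at edgeR adjusted p-values of 0.0285 and 0.0379. They were listed with RNA quality in mind, but no measure of RNA integrity was used here. The part of all these marker levels in the differences below was not tested.

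All 10 machinery genes had a higher mean with the mimic, but by little: the log2 fold changes ran from 0.04 to 0.40, with a median of 0.16, beside a median of 0.00 over all 12217 tested genes, of which 50.3% were above 0. All 10 stayed above 0 under each of the 3 scalings tried. In the edgeR quasi-likelihood fit, with p-values adjusted over all genes by Benjamini-Hochberg, 2 of the 10 rose, TNRC6C and AGO4, none fell, and 8 did not pass an adjusted p of 0.05. Over all tested genes 4.30% were called higher and 2.15% lower. At an unadjusted p under 0.05, edgeR's test had 5 of the 10 higher and 0 lower, beside 10.5% and 8.06% of all genes. DESeq2 and limma-voom each called 1 of the 10 higher, TNRC6C, and 0 lower. Of all tested genes they called 4.05% and 4.04% higher, and 275 and 259 genes lower. The values of all 3 mimic libraries lay above all 3 NC libraries for 5 of the 10, TNRC6C, TNRC6B, AGO4, DICER1 and DROSHA, against 11.4% of all tested genes. No member had the opposite separation, which 10.4% of all genes showed. The 10 were chosen with earlier results of these data known, so the shares of all genes beside them are no test. In bulk RNA, a change in RNA per cell and a change in the make-up of the cells cannot be told apart.

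**Figure D1:**
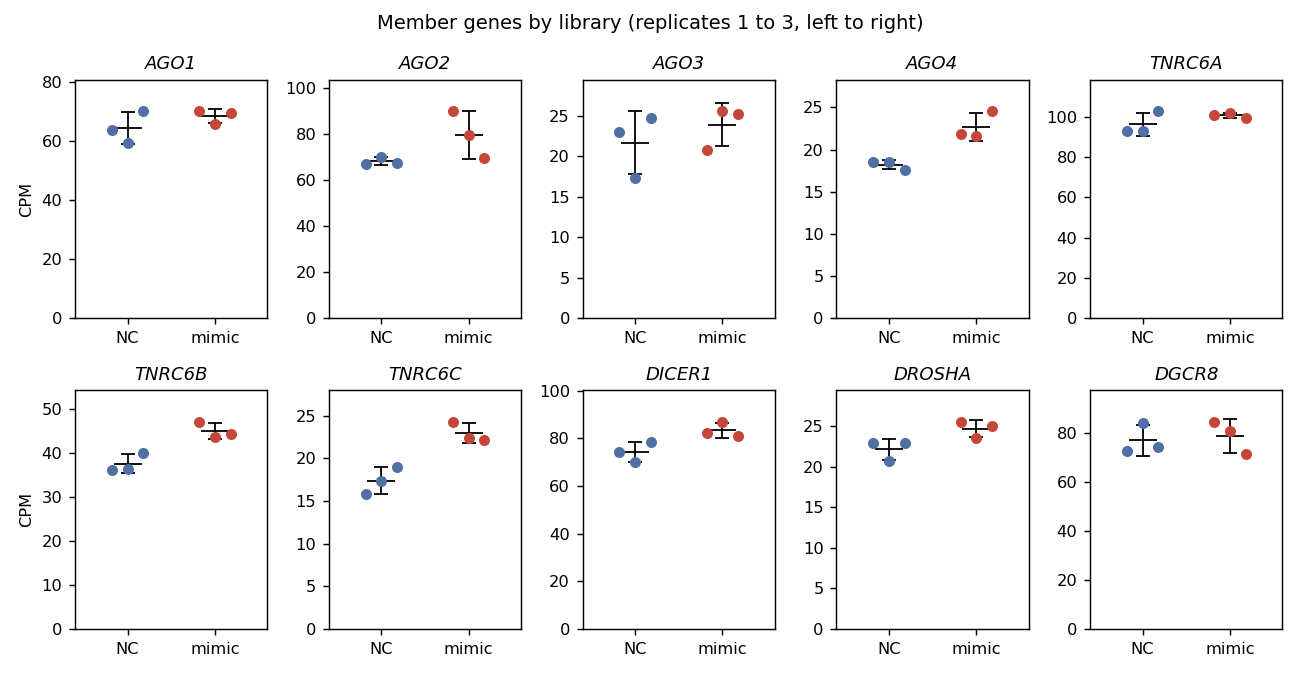
CPM of each of the 10 genes in the 3 NC and 3 mimic libraries, on axes that start at 0. Points are libraries and bars are the mean ± SD. The groups do not overlap for AGO4, TNRC6B, TNRC6C, DICER1 and DROSHA.

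The Argonautes hold the guide strand, and of the 4 in mammals AGO2 is the one known as an efficient slicer of fully paired targets. AGO2 was measured at 90.0, 79.3 and 69.4 CPM in mimic replicates 1 to 3 and at 67.0, 70.0 and 67.4 CPM in NC replicates 1 to 3. Mimic replicate 1 stood highest and mimic replicate 3 lay within the NC range, so the groups overlapped. The log2 fold change of AGO2 was 0.22 ± 0.08 (SE), with a 95% interval of 0.05 to 0.40 and an edgeR adjusted p of 0.133. The spread of AGO2 between mimic libraries was 12.9% of their mean, against 2.35% between NC libraries. The AGO2 difference moved with single mimic libraries: it was 0.31 without mimic replicate 3, at an edgeR adjusted p of 0.00902, and 0.13 without mimic replicate 1, at 0.387.

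AGO4, an Argonaute without slicer activity in human cells, was measured at 21.9, 21.6 and 24.6 CPM with the mimic and at 18.5, 18.5 and 17.6 CPM in NC. The NC libraries lay within 1 CPM of each other, and every mimic library was above them. AGO4 rose by 24.6%, a log2 fold change of 0.32 ± 0.10 with a 95% interval of 0.12 to 0.52, and its edgeR adjusted p was 0.0498, at the edge of the threshold. The AGO4 call was lost without each of the 6 libraries in turn, at edgeR adjusted p-values of 0.0582 to 0.178, and with both other scalings, the stricter filter, DESeq2 and limma-voom. Its log2 fold change stayed between 0.26 and 0.35 under all 13 alternatives.

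AGO1, a partner of TNRC6 in silencing that does not rely on slicing, was measured at 70.1, 65.6 and 69.5 CPM with the mimic and at 63.5, 59.1 and 69.9 CPM in NC. NC replicate 3 lay among the mimic libraries, and the groups overlapped. The log2 fold change of AGO1 was 0.09, with a 95% interval of −0.07 to 0.26, so a rise of more than 1.19-fold lay outside the interval. AGO3, the fourth Argonaute, was measured at 20.8, 25.6 and 25.2 CPM with the mimic and at 23.0, 17.3 and 24.7 CPM in NC. One low library, NC replicate 2, carried its mean difference of 0.14 on the log2 scale, which was −0.0045 without that library. Neither AGO1 nor AGO3 passed, at edgeR adjusted p-values of 0.598 and 0.599.

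AGO3, AGO1 and AGO4 are direct neighbours on bovine chromosome 3 in the RefSeq annotation of assembly ARS-UCD2.0, in that order, while AGO2 lies alone on chromosome 14. No coordinates are printed, because the sources used here do not give the build behind the counts. Among the 3 clustered genes, the groups separated for AGO4 and overlapped for AGO1 and AGO3. The log2 ratio of AGO4 to AGO1 counts within a library was −1.68, −1.61 and −1.50 with the mimic and −1.78, −1.68 and −1.99 in NC. These ranges met at −1.68, and an exact two-sided permutation test over the libraries gave p = 0.2, where the smallest p that 3 against 3 libraries allow is 0.1. For the ratio of AGO4 to AGO3 the groups also overlapped, with p = 0.5 in the same permutation test. This test could not show a difference between the neighbours at 0.05.

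Among reads of the 4 Argonaute genes, AGO2 took 40.8% ± 3.83 with the mimic and 39.6% ± 2.53 in NC (n = 3 each). AGO1 took 35.2% ± 1.44 and 37.2% ± 1.55, AGO3 12.3% ± 1.79 and 12.5% ± 1.78, and AGO4 11.7% ± 1.19 and 10.6% ± 0.714. For each of the 4 genes the range of the mimic libraries overlapped that of the NC libraries. These are shares of reads, which grow with transcript length, so they do not rank the Argonautes by number of molecules. The CPM summed over the 4 genes was 203, 192 and 189 with the mimic and 172, 165 and 180 in NC, a ratio of means of 1.13.

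**Figure D2:**
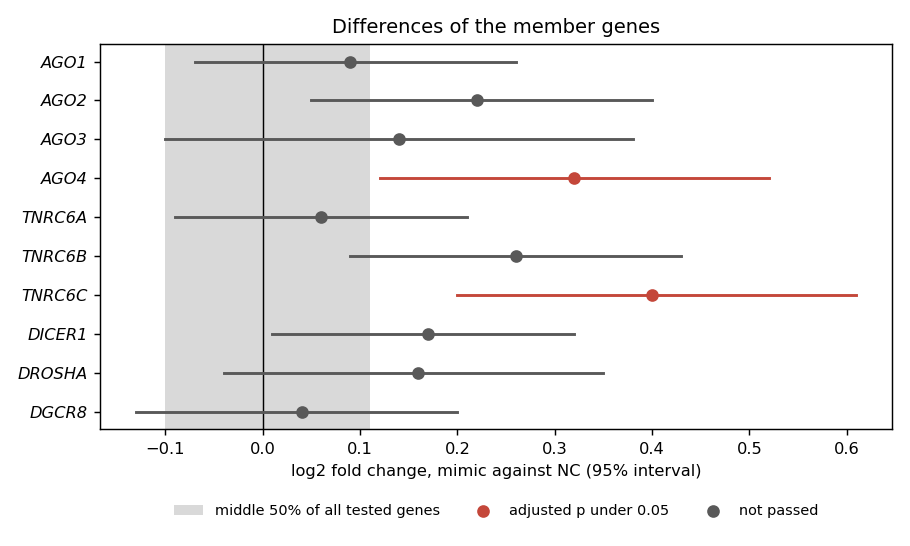
Log2 fold change of each of the 10 genes, mimic against NC, with 95% intervals from edgeR's quasi-likelihood fit. Red marks AGO4 and TNRC6C, the genes with an adjusted p under 0.05, and the grey band runs from −0.10 to 0.11, the middle 50% of all tested genes. All 10 points lie to the right of 0, and the intervals of AGO2, AGO4, TNRC6B, TNRC6C and DICER1 do not reach it.

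The TNRC6 proteins carry glycine-tryptophan repeats that bind Argonaute and the deadenylase complexes. TNRC6C had the largest log2 fold change of the 10 genes, while TNRC6A stood at 0.06. TNRC6C was measured at 24.3, 22.4 and 22.1 CPM with the mimic and at 15.8, 17.3 and 19 CPM in NC. The mimic libraries were close together and all above the NC libraries. TNRC6C rose 1.32-fold, a log2 fold change of 0.40 ± 0.10 with a 95% interval of 0.20 to 0.61 and an edgeR adjusted p of 0.0133, and 95.5% of all tested genes had a smaller log2 fold change. It was called under 11 of 13 alternatives, with log2 fold changes of 0.34 to 0.47. The exceptions were the fits without mimic replicate 1, at an edgeR adjusted p of 0.0548, and without NC replicate 1, at 0.154.

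TNRC6B was measured at 47.2, 43.7 and 44.4 CPM with the mimic and at 36.2, 36.5 and 40.1 CPM in NC, again without overlap. Its log2 fold change of 0.26 ± 0.08, with a 95% interval of 0.09 to 0.43, had an edgeR adjusted p of 0.059. TNRC6A was measured at 101, 102 and 99.2 CPM with the mimic and at 93.0, 92.9 and 103 CPM in NC. NC replicate 3 was the highest library of all 6, and the groups overlapped. The TNRC6A difference was 0.06, with a 95% interval of −0.09 to 0.21 and an edgeR adjusted p of 0.722.

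The relative amounts of the 3 TNRC6 transcripts separated the groups within each library, where library scaling cancels. TNRC6C took 14.1%, 13.3% and 13.3% of the TNRC6 reads with the mimic and 10.9%, 11.8% and 11.7% in NC. TNRC6A took 58.4%, 60.7% and 59.9% with the mimic and 64.2%, 63.3% and 63.6% in NC, so its share was lower in every mimic library. The log2 ratio of TNRC6C to TNRC6A counts was −2.13 ± 0.07 with the mimic and −2.48 ± 0.07 in NC, a difference of 0.34. For TNRC6B over TNRC6A it was −1.16 ± 0.07 and −1.36 ± 0.01, and for TNRC6C over TNRC6B −0.97 ± 0.03 and −1.12 ± 0.07. Of 12 ratios computed within the families, these 3 were the ones whose groups did not overlap. Each had an exact two-sided permutation p of 0.1, the smallest that 3 against 3 libraries allow, and a Benjamini-Hochberg value of 0.4 over the 12 ratios. This test therefore cannot pass 0.05 with so few libraries. The 3 ratios share their genes and are not independent of each other.

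**Figure D3:**
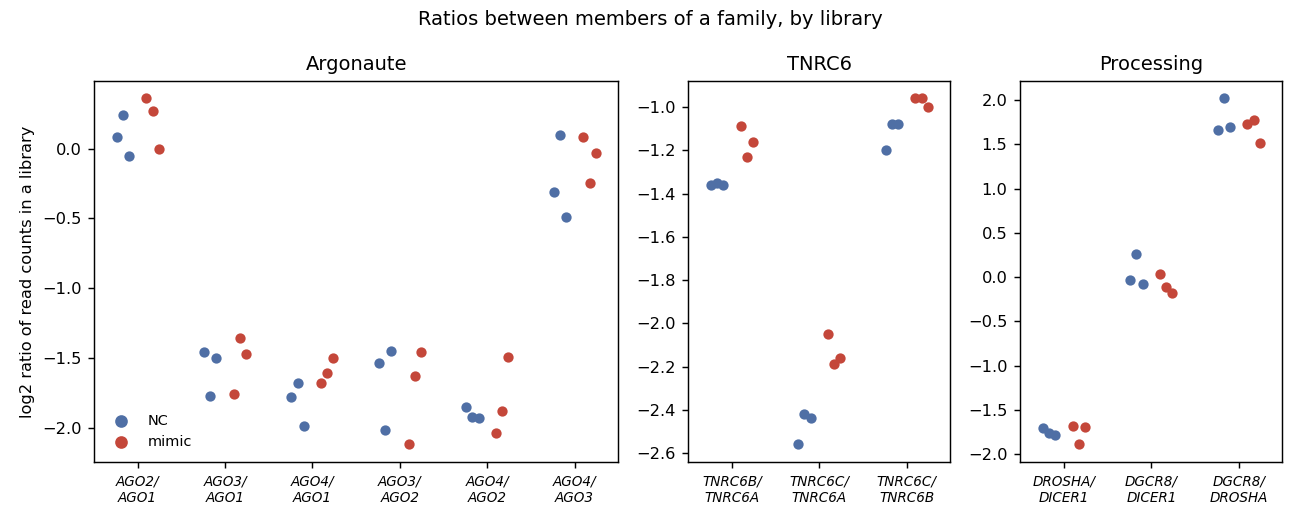
Log2 ratios of read counts between genes of the same family, for every library (blue NC, red mimic), with a separate vertical axis for each family. The groups are separate for the 3 TNRC6 ratios and overlap for all 6 Argonaute ratios and all 3 ratios of processing genes.

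None of the 3 processing genes passed the test. DICER1, the cytoplasmic RNase that cuts the hairpin to a duplex, was measured at 82.2, 87.1 and 80.9 CPM with the mimic and at 74.5, 70.1 and 78.6 CPM in NC. All mimic libraries were above NC, but the gap between the nearest libraries, 80.9 and 78.6 CPM, was smaller than the SD of either group. The DICER1 log2 fold change was 0.17 ± 0.07, with a 95% interval of 0.01 to 0.32 and an edgeR adjusted p of 0.23.

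DROSHA, the nuclear RNase, was measured at 25.6, 23.6 and 25 CPM with the mimic and at 23.0, 20.7 and 22.9 CPM in NC. Its groups also lay apart by a small gap, and its log2 fold change of 0.16 had a 95% interval of −0.04 to 0.35 and an edgeR adjusted p of 0.4. DGCR8, whose own mRNA is known to be cut by the Microprocessor in human and mouse cells, was measured at 84.7, 80.7 and 71.3 CPM with the mimic and at 72.7, 84.2 and 74.2 CPM in NC. Mimic replicate 3 was the lowest library and mimic replicate 1 the highest, so the spread within the mimic group covered the NC group. The DGCR8 difference was 0.04, with a 95% interval of −0.13 to 0.20 and an edgeR adjusted p of 0.885. The log2 ratio of DGCR8 to DROSHA counts was 1.67 ± 0.14 with the mimic and 1.79 ± 0.20 in NC, with an exact two-sided permutation p of 0.6 in a test that cannot go below 0.1.

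Read depth limited the scarcer genes more. TNRC6C had 320 to 504 reads per library, AGO4 339 to 501, AGO3 349 to 525 and DROSHA 418 to 531, while TNRC6A had 1874 to 2096. Counting error alone is 5.59% of the TNRC6C value at its lowest library and 2.31% for TNRC6A. The 2 genes that passed were among the 3 with the lowest counts. TNRC6C and AGO4 overlap no other gene in the RefSeq annotation, nor do AGO1, DICER1 and DROSHA. AGO2, AGO3, TNRC6A and TNRC6B overlap uncharacterised loci, AGO3 also overlaps a tRNA gene and DGCR8 contains the microRNA gene MIR1306, and the sources used here do not say whether the counting used strand, so reads of overlapping genes could not be told apart.

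**Figure D4:**
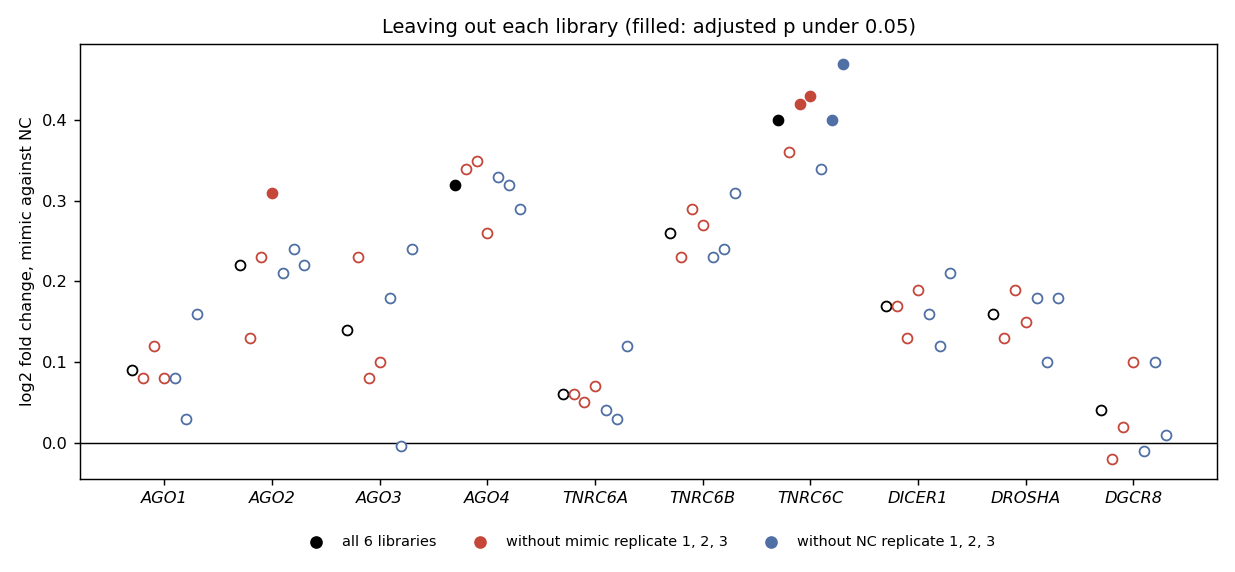
Log2 fold change of the 10 genes with all 6 libraries (black) and without each mimic (red) or NC (blue) library in turn. Filled points have an edgeR adjusted p under 0.05. TNRC6C is filled in 4 of its 6 left-out fits and AGO4 in none, while the AGO2 point without mimic replicate 3 is filled.

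The other genes of the pathway were read in 3 lists, beside the 4.30% of all tested genes called higher and 2.15% called lower. Of 40 cofactors of microRNA processing, stability and silencing, 35 were tested, 1 rose, 1 fell and 33 did not pass, with a median log2 fold change of 0.04. MOV10, an RNA helicase that associates with Argonaute, rose from 93.2, 98.0 and 98.4 CPM in NC to 128, 120 and 118 CPM with the mimic, a log2 fold change of 0.34 ± 0.07. NCBP2, the small subunit of the nuclear cap-binding complex, fell from 79.7, 75.6 and 78.8 CPM to 57.6, 64.6 and 66.4 CPM, a change of −0.31 ± 0.08. Both genes separated the groups, at edgeR adjusted p-values of 0.00376 and 0.0133. Both lost the call without NC replicate 1, MOV10 at an edgeR adjusted p of 0.0577 and NCBP2 at 0.0985, and NCBP2 also without NC replicate 3, at 0.0551. SAFB, a nuclear scaffold attachment factor, stood at 0.15 and PRKRA, a DICER1 partner, at −0.24, and neither passed. The 5 untested cofactors, LIN28A, LIN28B, PIWIL1, PIWIL2 and PIWIL4, were at 0 reads in all 6 libraries.

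Of 34 genes of deadenylation and decapping, the steps that TNRC6 recruits, all were tested, 1 rose, none fell and the other 33 did not pass, and the median log2 fold change was −0.02. At an unadjusted p under 0.05, edgeR's test had 2 higher and 0 lower, beside 10.5% and 8.06% of all genes. DESeq2 and limma-voom called 1 higher and 0 lower. DDX6, a helicase of P-bodies that links the CCR4-NOT complex to decapping, rose from 149, 170 and 157 CPM in NC to 173, 215 and 206 CPM with the mimic. Mimic replicate 1 lay close to NC replicate 2, and the others were well above NC. Its log2 fold change was 0.32 ± 0.08 with an edgeR adjusted p of 0.0146, and the call was lost without mimic replicate 2, NC replicate 1 or NC replicate 3, at edgeR adjusted p-values of 0.147, 0.146 and 0.0655. EDC4, a decapping scaffold, stood at 0.21, DCP1A, a decapping activator, at 0.15, and CNOT1, the scaffold of CCR4-NOT, at 0.13, and none of these passed. Without mimic replicate 3, EDC4 had an edgeR adjusted p of 0.04.

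Of 24 Argonaute chaperones and turnover factors, 23 were tested, none rose, 1 fell and 22 did not pass, with a median log2 fold change of 0.01. At an unadjusted p under 0.05, edgeR's test had 4 higher and 1 lower, beside 10.5% and 8.06% of all genes. DESeq2 and limma-voom each called 0 higher and 1 lower, FKBP5, at adjusted p-values of 0.0325 (DESeq2) and 0.0473 (limma-voom). FKBP5, a co-chaperone of HSP90, fell from 94.1, 84.7 and 103 CPM in NC to 71.7, 78.7 and 81.8 CPM with the mimic, a change of −0.28 ± 0.08 at an edgeR adjusted p of 0.0401. That call was lost without mimic replicate 1, mimic replicate 2, NC replicate 1 or NC replicate 3, at edgeR adjusted p-values of 0.132, 0.125, 0.156 and 0.205. The receptor kinase EGFR, which phosphorylates AGO2 under hypoxia in human cells, stood at 0.23, the LIM protein AJUBA at 0.18 and ANKRD52, a subunit of the phosphatase that resets Argonaute, at 0.19, and none of these passed. TRIM71, an Argonaute-binding ubiquitin ligase, was at 0 reads throughout.

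**Figure D5:**
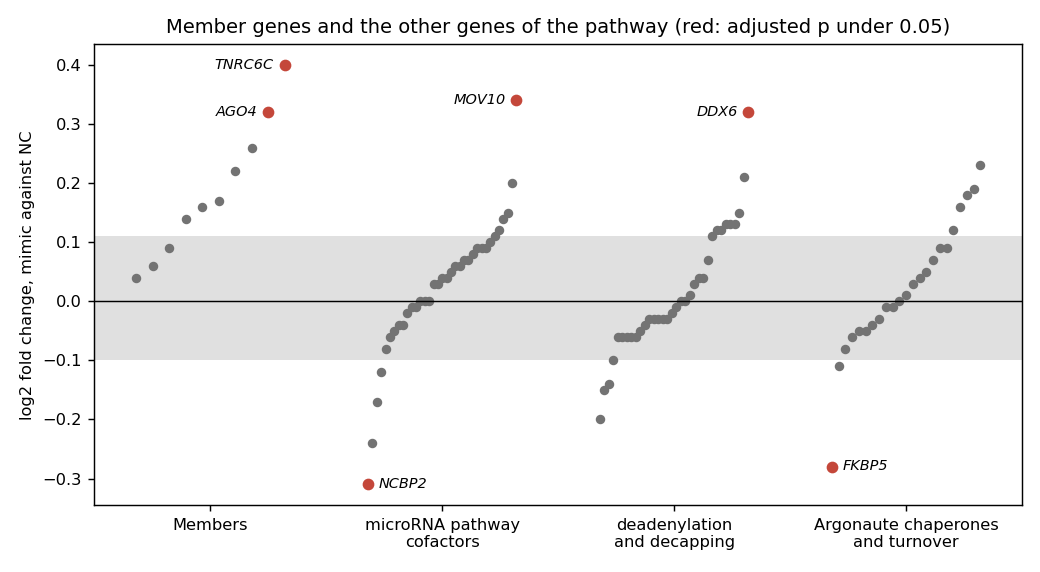
Log2 fold change, mimic against NC, of the 10 machinery genes and of the tested genes of the 3 pathway lists, each point a gene, ordered by value within its list. Red points passed an adjusted p of 0.05 and are named, and the grey band, −0.10 to 0.11, holds the middle 50% of all tested genes. The 10 machinery genes lie above 0, while each of the other lists spreads to both sides of it.

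Among 9600 other tested genes whose mean log2 CPM reached 3, the profile most like that of TNRC6C over the 6 libraries was that of SLC6A6, a taurine transporter. The root mean square difference between the centred log2 CPM of SLC6A6 and TNRC6C was 0.0216. The next were PRKX, a protein kinase, at 0.0333, KIAA0513 at 0.0343, MYH9, a non-muscle myosin heavy chain, at 0.036 and SLC5A1, a glucose transporter, at 0.0364. SLC6A6 was measured at 129, 119 and 121 CPM with the mimic and at 84.9, 90.8 and 99.2 CPM in NC. With 6 libraries in 2 groups, likeness of this kind describes the libraries and was not tested.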

How the data were processed

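The authors deposited raw counts per gene for the 6 libraries, which were made with a stranded mRNA kit per the labels' protocols. The submitters' processing notes name Trimmomatic, HISAT2 and HTSeq and give no version or role for them. The sources used here do not give the build, the annotation or the strand setting. In the table, 26 symbols stored as dates were restored through GeneIDs, and 97.8% of the genes have theirs in the RefSeq table. Low genes were removed with filterByExpr at a minimum count of 10 and a minimum total of 15, and 12217 remained for testing. CPM used TMM-scaled library sizes. Differences were tested two-sided in R 4.3.3 with edgeR 4.0.16 (quasi-likelihood F test, robust, group alone in the model), and p-values were adjusted over all tested genes by Benjamini-Hochberg, with a threshold of 0.05. The fit was tested on simulated data. The standard error is the size of a log2 fold change over the root of its F statistic, and 95% intervals use the fit's degrees of freedom. Likeness between profiles used log2 CPM with a prior count of 2.

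Groups and replicate numbers came from the sample titles. Same-numbered mimic and NC libraries deviated from their group means with correlations of −0.05, 0.13 and 0.19. With 3 libraries a group, these values neither show nor exclude that the numbers pair them. The members, the 3 pathway lists and the markers were chosen with earlier results of these data known. From each list the text names the called genes and, where fewer than 4 were called, those with the smallest p up to 4. The alternatives were other scalings (RLE, upper quartile), no filter, a filter of at least 1 CPM in 3 libraries, limma-voom from limma 3.58.1, DESeq2 1.42.0, a replicate block and the omission of each library. Ratios were computed for every pair within a family, a choice made after the values were seen. Counting error is given for the library with the fewest reads and covers counting only.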

Additional observations from a re-analysis of the deposited data

How the results depend on the processing

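Over 13 alternatives for each of the 10 machinery genes, 111 of 130 values kept their direction and their side of the threshold, 13 lost a call, 3 gained one and 3 changed sign. The sign changes were in uncalled genes near 0: AGO3 ranged from −0.0045 (NC replicate 2 left out) to 0.24 over the left-out libraries, and DGCR8 from −0.02 (mimic replicate 1 left out) to 0.1, with −0.01 when NC replicate 1 was left out. TNRC6C alone of the 10 genes was called higher with RLE scaling, upper quartile scaling, the stricter filter, DESeq2 and limma-voom. Of all tested genes, 4.16%, 4.02%, 4.32%, 4.05% and 4.04% were called higher under these settings, in that order. With a library left out, 0 to 2 of the 10 were called higher, beside 2.23% to 5.92% of all tested genes. The median log2 fold change of all genes lay between −0.009 and 0.001 under the alternatives. Samples that share a replicate number were not shown to be pairs. With the replicate block edgeR called 816 genes higher, 6.68% of all tested genes, and 496 lower. With that block 4 of the 10 machinery genes (AGO2, AGO4, TNRC6B and TNRC6C) and 1 gene of the chaperone list, EGFR, were called higher. Leaving out a library gave 275 to 731 higher and 82 to 414 lower genes in all, 0 to 1 higher and 0 to 1 lower cofactors, 0 to 2 higher decapping genes and 0 to 1 lower chaperone genes. Counts per kilobase of transcript were not run, since no transcript lengths were used here. The causes of these changes were not tested.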

Other observations

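The genes beside the machinery genes on the chromosomes, taken from the RefSeq annotation of assembly ARS-UCD2.0, gave a local comparison that was chosen after the values were seen. The 10 genes have 16 protein-coding neighbours outside the set, of which 12 were tested. CLSPN, the neighbour of AGO4 and an adaptor of the replication checkpoint, was measured at 23.3, 26.9 and 19.8 CPM with the mimic and at 15.2, 20.6 and 17.1 CPM in NC. Its groups overlapped, and its log2 fold change of 0.41 ± 0.12 had an edgeR adjusted p of 0.0425. TEKT2, at the other end of the Argonaute cluster, had a difference of −0.33 and an edgeR adjusted p of 0.329. SEPTIN9 and TMC6, which flank TNRC6C, stood at 0.03 and 0.09, with edgeR adjusted p-values of 0.899 and 0.643. PTK2, the focal adhesion kinase gene next to AGO2, stood at 0.00, with 182 ± 6.02 CPM with the mimic and 182 ± 3.52 CPM in NC.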
